A study of Mus musculus with 4 samples.

Results

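The genes described here are 35 cell cycle genes read in single leukocytes of the mouse left ventricle. A gene was taken by its symbol in both count matrices, all 35 were found among 31053 genes, and 13 of them act in S phase and 22 in G2 and mitosis (M). A cell was called cycling when at least 4 of the 35 genes had a UMI, a unique molecular identifier that marks a single captured RNA molecule. By that rule 405 of 10944 cells were cycling (3.70%), 98 of 4080 cells from sham mice and 307 of 6864 cells from DOCA-salt mice. All mice were C57Bl6J. One group had sham treatment and the other DOCA-salt, a mineralocorticoid (deoxycorticosterone acetate) given with salt, which is known to raise blood pressure; age, sex, dose and duration are not given in the sources used here. Cells carrying CD45, the surface protein shared by leukocytes, were enriched with beads, stained with hashtags that mark the mouse, pooled within a group, sorted and read from the RNA's 5′ end. Each group had 4 mice and 1 library, so library and treatment cannot be told apart.

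A dividing cell copies its DNA in S phase and separates the copies in mitosis. The MCM proteins form the helicase that opens DNA at replication origins, and Rrm1, Rrm2, Tyms and Tk1 supply the nucleotides. Cyclins A and B with Cdk1 drive entry into mitosis, Aurora and Polo kinases build the spindle, and the anaphase-promoting complex with Cdc20 and Ube2c ends it. S phase genes are known as targets of E2F factors, and many G2/M genes carry a CHR element and CCAAT boxes, which the DREAM complex, B-Myb and NF-Y use. In the heart, resident macrophages are known to renew in part by division.

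The 6 promoters are shown because they hold elements named above and belong to genes whose values are given in the results; capitals mark a match to a searched motif on either strand. The letters come from RefSeq's table for GRCm38.p6, run 5′ to 3′ on the gene's strand and end at the base before the first listed start. Mcm5 (chr8:75109349-75109508, plus strand) and Mcm6 (chr1:128359706-128359825, minus strand) stand for the helicase genes and hold E2F matches. Pclaf (chr9:65890243-65890322, plus strand) is an S gene with CCAAT boxes. Top2a (chr11:99024190-99024299, minus strand), Ccnb2 (chr9:70421555-70421724, minus strand) and Ube2c (chr2:164769829-164769928, plus strand) are G2/M genes with a CHR match and CCAAT boxes.
Mcm5: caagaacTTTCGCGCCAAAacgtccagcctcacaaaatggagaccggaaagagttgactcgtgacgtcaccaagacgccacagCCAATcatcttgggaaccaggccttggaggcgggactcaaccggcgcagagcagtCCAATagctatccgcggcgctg
Mcm6: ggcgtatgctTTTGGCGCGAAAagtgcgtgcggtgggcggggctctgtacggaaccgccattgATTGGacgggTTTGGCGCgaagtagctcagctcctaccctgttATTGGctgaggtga
Pclaf: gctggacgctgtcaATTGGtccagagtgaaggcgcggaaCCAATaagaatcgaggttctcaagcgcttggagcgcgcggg
Top2a: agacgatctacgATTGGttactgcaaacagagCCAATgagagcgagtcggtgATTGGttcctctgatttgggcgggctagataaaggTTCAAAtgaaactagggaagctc
Ccnb2: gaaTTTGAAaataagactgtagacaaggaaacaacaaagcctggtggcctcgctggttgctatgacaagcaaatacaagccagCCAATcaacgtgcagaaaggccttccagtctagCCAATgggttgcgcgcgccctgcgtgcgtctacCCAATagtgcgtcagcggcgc
Ube2c: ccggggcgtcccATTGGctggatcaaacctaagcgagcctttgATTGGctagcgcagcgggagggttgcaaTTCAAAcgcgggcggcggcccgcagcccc

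The promoter table held 30 of the 35 genes, and the 250 bases before each start were searched on both strands without removing overlapping matches. A CCAAT box (CCAAT) stood before 9 of 11 S genes (81.8%) and 16 of 19 G2/M genes (84.2%), against 34.5% of 27025 genes in the table. A CHR match (TTTGAA or TTCGAA) together with a CCAAT box stood before 7 of 19 G2/M genes (36.8%), 2 of 11 S genes (18.2%) and 6.21% of all genes. An E2F match (TTTCCCGC, TTTGGCGC, TTTGCCGC or TTTCGCGC) stood before 3 of 11 S genes (27.3%), 1 of 19 G2/M genes (5.26%) and 1.91% of all genes. A match of letters is a description of these windows only.

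The sham library held 4359 barcodes and 13304511 UMIs and the DOCA-salt library 7600 barcodes and 29764964 UMIs, with 41 barcodes in both. After filtering, a mouse gave 624 to 2172 cells, and the median depth was 2674.5 to 2897 UMIs per cell in sham and 2968.5 to 3345.5 in DOCA-salt mice. Ptprc, which encodes CD45, had a UMI in 78.3% of all cells and in 85.7% of cycling cells. Clusters were built without cell cycle genes and named from marker lists, so each class name below means cells like that type: B (4869 cells), NK (1820), T (1468), macrophage (1013) and smaller classes. B cells made up 51.3% of sham and 40.4% of DOCA-salt cells. Sham mouse 4 stood apart from the other sham mice: of those 4 mice it had the highest level of 22 of 22 G2/M genes and 10 of 13 S genes. Results that rest on it are given with and without it.

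Most heart leukocytes carried few of the 35 genes. None was seen in 4721 cells (43.1%) and 1 gene in 3622 cells (33.1%). Just below the threshold, 566 cells had 3 genes and a median of 3898 UMIs, and just above it 158 cells had 4 genes and a median of 4496 UMIs. At the other end, 96 cells (0.877%) had 10 or more genes and a median of 8238 UMIs. Cycling cells had a median of 5998 UMIs and other cells 3019, so cells above the threshold were also read more deeply. Of the 405 cycling cells, 72 had no G2/M gene at all. Doublet calls, barcodes scored as holding more than 1 cell and left out of the cell counts above but not of the barcode and UMI totals, took 5.59% of barcodes with at least 4 of the genes, 2.04% of those with at least 10 and 1.68% of those with 0 to 3.

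To see where each gene was found without using it in the call, a cell was called cycling for that gene from the other 34. The helicase genes were seen widely. Mcm6 had a UMI in 52.8% of cycling and 13.6% of other cells, Mcm3 in 39.7% and 8.03%, Mcm5 in 35.3% and 6.47%, and Mcm2 in 28.8% and 4.70%. Mcm4 and Mcm7 each reached 37.5% of cycling cells and 11.6% and 11% of the others. Rrm1, the large subunit of ribonucleotide reductase, was at 31.2% and 7.11%, and Cenpa, the histone H3 variant of centromeres, at 31.3% and 8.76%. For these 8 genes most UMIs lay outside cycling cells: those cells held 18.7% of Mcm4 UMIs and 33.8% of Mcm2 UMIs, the ends of the range. In neutrophil-like cells, of which 1 of 169 was cycling, Cenpa had a UMI in 6.51% and Mcm3 in none, at a median of 1921 UMIs. In nonclassical-monocyte-like cells, at a median of 3393.5 UMIs, Mcm3 reached 9.03%. Mcm3 and Cenpa were thus each seen in at least 1 class that held almost no cycling cells.

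Another 24 genes had a UMI in under 1% of other cells. Birc5, the survivin subunit of the chromosomal passenger complex, was seen in 27.1% of cycling and 0.275% of other cells, and cycling cells held 93.9% of its UMIs. Pclaf, a PCNA partner in replication, was at 22.9% and 0.266% with 93.8% of UMIs, and Ccnb2, a B-type cyclin, at 23.9% and 0.360% with 88.7%. Ccna2, cyclin A2, was at 19.2% and 0.142%, and Hmmr, a spindle protein, at 12.9% and 0.0569%; cycling cells held 95.7% and 95.8% of their UMIs. The proliferation marker Mki67 was at 22.6% and 0.503%, Top2a, the topoisomerase that untangles chromosomes, at 21.3% and 0.948%, and Ube2c, the ubiquitin-conjugating enzyme of the anaphase-promoting complex, at 21.1% and 0.484%. Of the 35 genes, 16 had over 80% of their UMIs in cycling cells. The rarest were Esco2, the acetyltransferase of cohesin, at 6.45% of cycling cells, Bub1, a spindle checkpoint kinase, at 6.68%, and Aurka, the Aurora A kinase, at 7.50%. The other genes fell between: Kif20b, a kinesin, had a UMI in 2.64% of other cells, Tyms in 1.66% and Aurkb, the Aurora B kinase, in 1.35%.

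**Figure D1:**
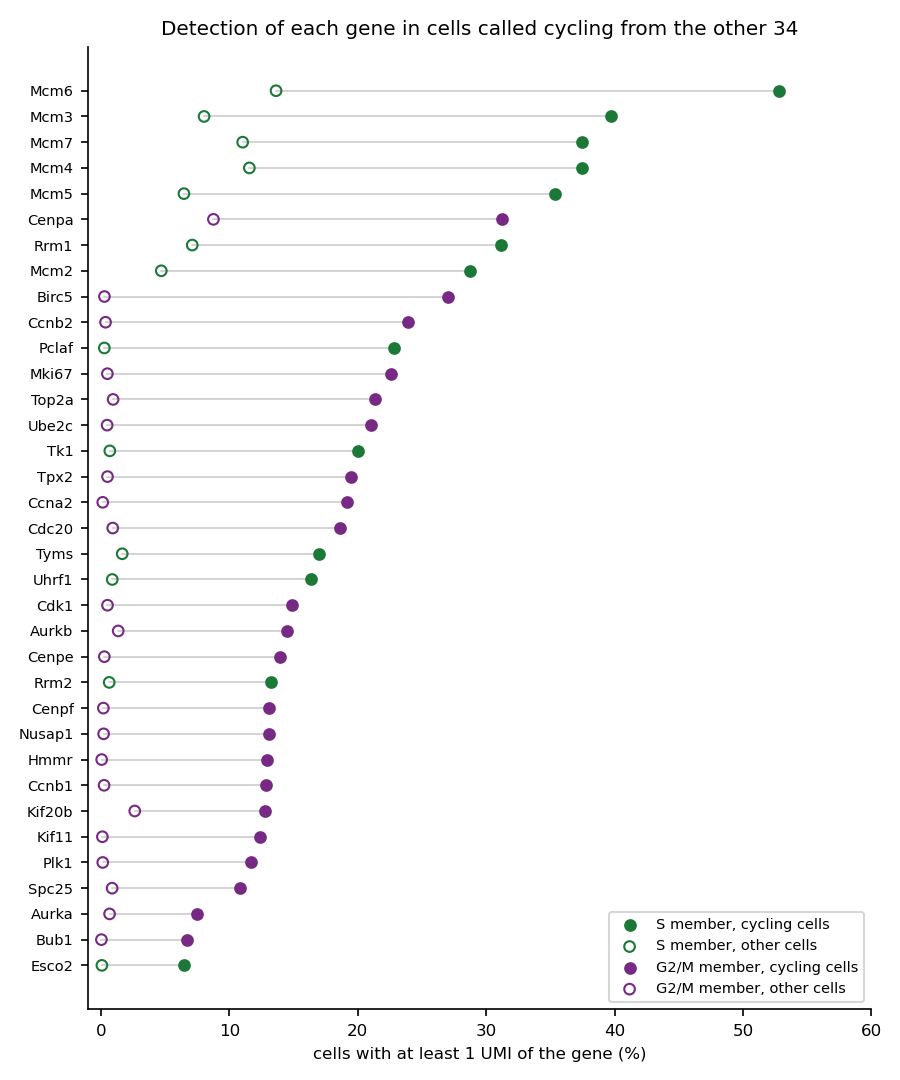
Percent of cells with a UMI of each of the 35 genes (x axis, percent), in cells called cycling from the other 34 genes (filled) and in all other cells (open), S genes in green and G2/M genes in purple. The MCM genes, Rrm1 and Cenpa have open points far to the right of those of genes such as Birc5, Pclaf and Hmmr.

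Within the cycling cells the S genes fell into 2 sets. A cell was called S-led when it had more UMIs of S genes than of G2/M genes, and G2/M-led in the reverse case. The gene at hand was left out of these UMIs. On all genes, 247 cells were S-led, 122 G2/M-led and 36 equal. S-led cells had a median of 5 genes at 6352 UMIs and G2/M-led cells 9 genes at 5133 UMIs. The 6 MCM genes and Rrm1 were seen more often in S-led cells: Mcm6 in 67.1% against 40.9% of G2/M-led cells, and Mcm2 in 42.6% against 9.92%. The 6 remaining S genes were seen more often in G2/M-led cells. Pclaf was found in 47.2% of them against 12.2% of S-led cells, Tk1, a thymidine kinase, in 33.6% against 14.7%, Rrm2, the small reductase subunit, in 21.1% against 10.2%, and Esco2 in 15.5% against 2.85%. Uhrf1, which guides maintenance DNA methylation, was at 22% and 15.6%, and Tyms at 24.6% and 14.4%. Each of the 22 G2/M genes was seen more often in G2/M-led cells, among them Birc5 (70.8% against 9.56%) and Ccnb2 (64.4% against 7.60%). The S genes seen more often in S-led cells were thus the same 7 that were widely seen outside cycling cells. These shares describe the pooled cells of 8 mice and have no test.

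**Figure D2:**
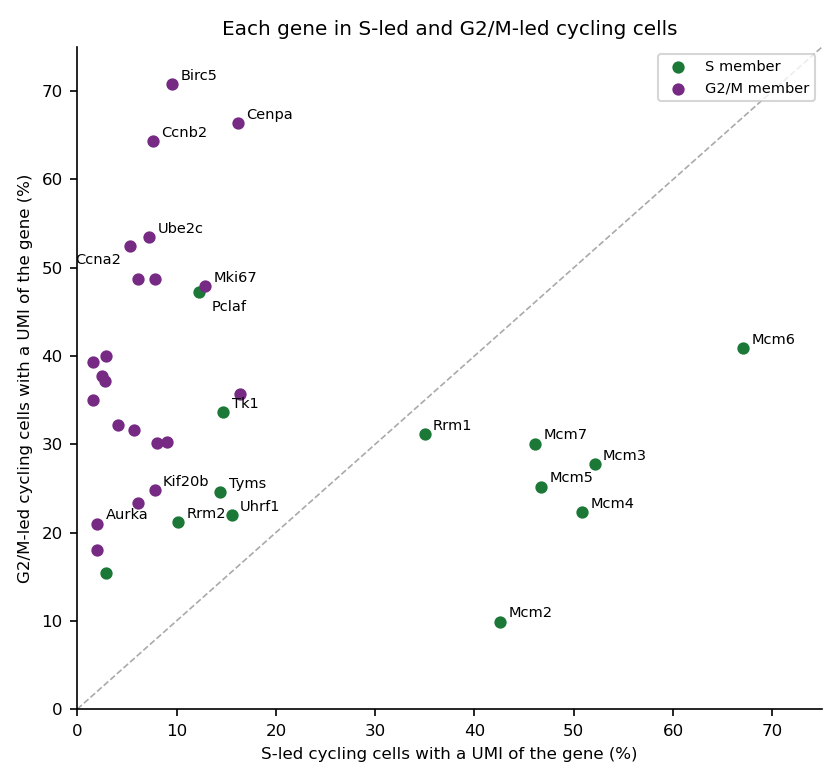
Percent of S-led (x axis) and G2/M-led (y axis) cycling cells with a UMI of each gene, the gene itself left out of the call; S genes in green, G2/M genes in purple, dashed line of equality. The 6 MCM genes and Rrm1 lie below the line and the 6 other S genes, such as Pclaf and Tk1, lie above it with all 22 G2/M genes.

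The share of member UMIs that came from S genes in cycling cells was 69.1%, 49.5%, 70.7% and 35% in the 4 sham mice. In the DOCA-salt mice it was 44.3%, 48.6%, 43.4% and 41.4%. Sham mice 1 and 3 were high and sham mouse 4 was the lowest of all 8. The mean was 56.1 ± 17.0% (SD, n = 4) in sham and 44.4 ± 3.03% (SD, n = 4) in DOCA-salt, a difference of -11.6 percentage points (two-sided exact permutation p = 0.314). Without sham mouse 4 the difference was -18.7 points and the groups no longer overlapped (exact permutation p = 0.0286). That mouse was left out after its values were seen. A single cell held 30.6%, 34.4%, 52.9% and 19.95% of these UMIs in the sham mice, and 5.40%, 15.4%, 31.3% and 15.9% in the DOCA-salt mice. Counted by cells, a mean of 68.7% of cycling cells was S-led in sham and 62.1% in DOCA-salt mice, over all 8 mice (exact permutation p = 0.400). Between classes, pooled over mice, the S share was 66.1% in B, 58.4% in NK, 41.1% in T and 28.2% in macrophage-like cells. In macrophage-like cells it ran from 1.91% to 80.9% over the 7 mice with cycling cells, and without DOCA-salt mouse 1 it was 43% there against 36.3% in T-like cells, so the order of these 2 classes turned. In cells with 10 or more of the genes it was 35.6%.

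The share of cycling cells was higher in DOCA-salt than in sham mice when all leukocytes and all UMIs were used, and the difference did not pass the test at equal depth. In the sham mice 2.36%, 2.33%, 1.92% and 2.73% of cells were cycling. In the DOCA-salt mice the shares were 6.54%, 3.35%, 3.14% and 3.81%. The groups did not overlap, with means of 2.34 ± 0.331% and 4.21 ± 1.58% (SD, n = 4 each), a difference of 1.87 points and a two-sided exact permutation p of 0.0286, the smallest that 4 against 4 mice can give. Leaving out any 1 sham mouse gave differences of 1.73 to 2 points with an exact permutation p of 0.0857, and without DOCA-salt mouse 1 the difference was 1.10 points (exact permutation p = 0.0286). When each cell was thinned to 1500 UMIs, leaving out 523 sham and 686 DOCA-salt cells with fewer, the sham mice had 0.713%, 0.487%, 0.566% and 1.38%. The DOCA-salt mice then had 2.53%, 1.05%, 0.455% and 0.990%, and the groups overlapped. The difference was 0.469 points (exact permutation p = 0.457). With 10 or more genes required, it was 0.571 points (exact permutation p = 0.200). As a ratio of the means, DOCA-salt was 1.80-fold sham with all UMIs, 1.60-fold thinned to 1500 UMIs and 2.36-fold with 10 or more genes. Without DOCA-salt mouse 1 the ratios were 1.47, 1.06 and 1.65, and without sham mouse 4 they were 1.91, 2.13 and 4.03. B-like cells, the class with the lowest cycling share of the 4 large ones, were also the smaller part of the DOCA-salt cells; the part that depth and composition have in the difference was not tested beyond these values.

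**Figure D3:**
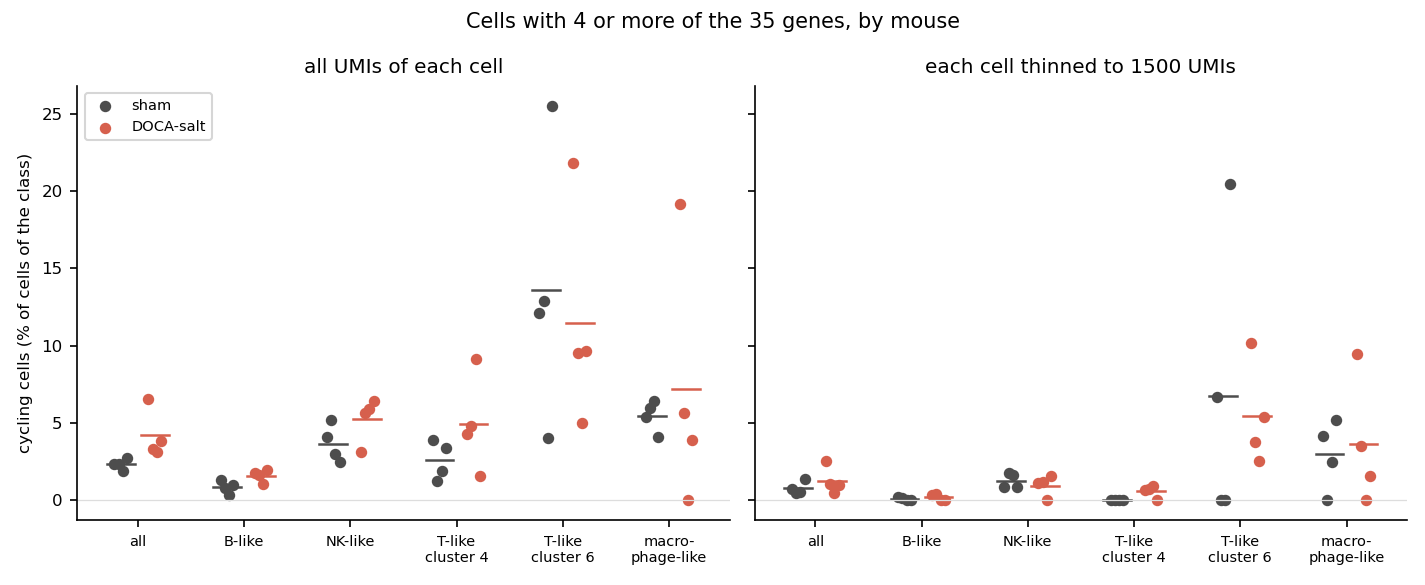
Percent of cells called cycling per mouse (y axis), with the mean of 4 mice as a line, for sham and DOCA-salt; all UMIs on the left and cells thinned to 1500 UMIs on the right. For all leukocytes the groups are apart on the left (1.92% to 2.73% against 3.14% to 6.54%) and overlap on the right, and in macrophage-like cells DOCA-salt mouse 1 lies far above the other mice.

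T-like cells gave 109 of the 405 cycling cells, the most of any class, and formed 2 clusters that differed in how many cells were cycling. Cluster 4, led by Dapl1, Igfbp4 and Lef1, had 36 of 940 cells cycling (3.83%). Cluster 6, led by Cxcr6, Trgv2 and Tcrg-C1, had 73 of 528 (13.8%), and 32 of its cells carried 10 or more of the genes against 5 in cluster 4. Cluster 6 has a gamma-delta T marker but no T marker among its 10 leading genes, so the class was compared by cluster. In cluster 4 the sham mice had 3.9%, 1.22%, 1.89% and 3.39% and the DOCA-salt mice 4.29%, 4.79%, 9.17% and 1.56%. In cluster 6 the sham mice had 12.1%, 12.9%, 4% and 25.5% and the DOCA-salt mice 21.8%, 9.52%, 5% and 9.63%. Sham mouse 4 was the highest of all in cluster 6, DOCA-salt mouse 3 the highest in cluster 4, and the groups overlapped in both. The differences were 2.36 points (two-sided exact permutation p = 0.171, 0.343 adjusted over 2 clusters) and -2.15 points (exact permutation p = 0.657). In cluster 6 the difference turned to 1.81 points without sham mouse 4 and to 0.0136 points without DOCA-salt mouse 3. In cluster 4 the DOCA-salt mice were all above the sham mice under 2 looser rules. The difference was 5.13 points with at least 3 genes and 11.7 points with at least 2 S genes. The exact permutation p was 0.0286 for each, 0.0571 adjusted over 2 clusters. When only 1 cluster reaches that p, its adjusted p cannot be lower. With at least 6 genes the difference was -0.0982 points. T-like cells had a median of 4205 UMIs in sham and 5422.5 in DOCA-salt mice. Thinned to 1500 UMIs, 0 of 295 sham and 3 of 587 DOCA-salt cells of cluster 4 were cycling, a difference of 0.578 points.

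NK-like cells gave 88 cycling cells. The sham mice had 4.07%, 5.17%, 2.99% and 2.47% and the DOCA-salt mice 3.15%, 5.63%, 5.88% and 6.44%; 3 DOCA-salt mice lay above every sham mouse. The difference was 1.60 points (two-sided exact permutation p = 0.143, 0.357 adjusted over the 5 classes tested), and thinned to 1500 UMIs it was -0.311 points. Most of these cells were led by S genes, 75 of 88, and 59 of 88 had at most 1 G2/M gene. B-like cells, the largest class, gave 66 cycling cells, and 53 of them had exactly 4 genes. Their shares were 1.33%, 0.775%, 0.321% and 0.984% in sham and 1.77%, 1.62%, 1.03% and 1.93% in DOCA-salt mice, with 1 sham mouse above the lowest DOCA-salt mouse (exact permutation p = 0.0571, 0.286 adjusted). Only 2 B-like cells carried 10 or more of the genes.

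Macrophage-like cells gave 94 cycling cells, and 62 of them came from DOCA-salt mouse 1. The sham mice had 5.41%, 5.94%, 6.45% and 4.08%. The DOCA-salt mice had 19.2% (62 of 323 cells, exact Clopper-Pearson 95% interval 15.05% to 23.9%), 5.62%, 0 of 60 cells, which allows a share of up to 5%, and 3.9%. One mouse was far above the rest and the others lay within or below the sham range. The difference of the means was 1.71 points (exact permutation p = 0.914) and -2.30 points without DOCA-salt mouse 1. That mouse also held 22 of the 29 macrophage-like cells with 10 or more of the genes. The difference in macrophage-like share minus that of B, T or NK-like cells of the same mouse was 0.972, -0.438 and 0.105 points between groups (exact permutation p = 0.971, 0.943 and 1). Of the smaller classes, cDC2-like cells had 17 of 146 cycling (11.6%) at a median of 9271.5 UMIs, the classical-monocyte-like 3 of 122, the nonclassical 2 of 288 and the neutrophil-like 1 of 169; unnamed clusters had 25 of 1049. Thinned to 1500 UMIs, 1 of 142 cDC2-like cells (0.704%) and 40 of 806 macrophage-like cells (4.96%) were cycling. Intervals and limits cover counting error only.

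The cycling macrophage-like cells of DOCA-salt mouse 1 also differed in other genes from those of the other mice. Spp1 (osteopontin) had a UMI in 42 of 62 of them (67.7%), in 4 of 16 (25%) of the other DOCA-salt mice and in 1 of 16 (6.25%) of sham mice. Ccr2, the receptor of monocyte-derived cells, had a UMI in 40 of 62 (64.5%), 6 of 16 and 0 of 16. The other macrophage-like cells of that mouse were at 42.9% for Spp1 and 50.6% for Ccr2, at a median of 4218 UMIs against 4908 in its cycling cells. Such cells were at 4.79% and 33.8% in the other DOCA-salt mice and at 2.48% and 15.25% in sham mice. The difference between mice was thus not confined to cycling cells. Cycling macrophage-like cells had a median of 5076 UMIs in the other DOCA-salt mice and 3536 in sham mice. Trem2, a lipid receptor of macrophages, had a UMI in 80.6% of the cycling and 65.5% of the other macrophage-like cells of DOCA-salt mouse 1. Its shares were 56.25% and 48.1% in the other DOCA-salt mice. In sham mice they were 18.75% of cycling (3 of 16) and 34.4% of other macrophage-like cells. Cd163 and H2-Aa went the other way, with a UMI in 11.3% and 72.6% of its cycling macrophage-like cells. They were at 31.25% and 81.25% in those of the other DOCA-salt mice and at 43.75% and 93.75% in those of sham mice. Most cycling macrophage-like cells of DOCA-salt mouse 1, 39 of 62, were G2/M-led. These are cells of 1 mouse, chosen for description after the values were seen, and have no test.

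No single gene of the 35 passed the test between DOCA-salt and sham in any class. The test was edgeR's quasi-likelihood test on UMIs summed per mouse, with Benjamini-Hochberg adjustment over all genes and a threshold of 0.05. In all leukocytes 0 of 32 genes tested passed, where 5.25% of 10778 genes did. The other 3 genes had too few counts to enter. One gene had an unadjusted p under 0.05, against 18.9% of all genes. The log2 fold change was above 0 for 28 of the 32, with a median of 0.29 against 0.01 over all genes; the 12 S genes had a median of 0.09 and the 20 G2/M genes 0.37. In bulk sums of this kind more cycling cells and more RNA per cell cannot be told apart. All 7 B cell markers fell in the same sums, with a median log2 change of -0.76, and the part of composition in the members' values was not tested.

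The levels by mouse, in CPM (counts per 1000000 UMIs) over all leukocytes, show how the G2/M genes varied within sham. Top2a was at 2.78, 4.73, 5.61 and 32.5 CPM in the sham mice and 9.62, 16.6, 11.8 and 21.9 CPM in the DOCA-salt mice. All DOCA-salt mice were above 3 sham mice and below sham mouse 4, and the log2 fold change was 0.29 (edgeR adjusted p = 0.872). Ccna2 was at 0.348, 2.63, 2.81 and 17.7 CPM in sham and 9.17, 9.52, 7.38 and 11.3 CPM in DOCA-salt mice, in the same order. Mki67 was at 5.21, 3.42, 6.73 and 17.7 CPM in sham and 9.06, 11, 13.3 and 15.7 CPM in DOCA-salt mice. Uhrf1 was the gene with the unadjusted p under 0.05: it was at 4.52, 2.89, 2.25 and 4.92 CPM in sham and 7.41, 6.34, 3.32 and 6.58 CPM in DOCA-salt mice, with 3 DOCA-salt mice above every sham mouse. Its log2 fold change was 0.70 (SE 0.29, edgeR adjusted p = 0.217). Mcm6 moved little, at 59.8, 43.4, 52.8 and 57.6 CPM in sham and 59.9, 54.5, 58.7 and 64.5 CPM in DOCA-salt mice. For none of the 35 genes were all 4 DOCA-salt mice above all sham mice, which 5.81% of tested genes showed.

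Without sham mouse 4, 6 of 31 genes tested passed, all higher in DOCA-salt mice, where 1.57% of all genes were called higher. They were Ccnb1 (log2 fold change 2.30, edgeR adjusted p = 0.0310), Ccna2 (2.29, 0.0151), Birc5 (1.96, 0.0432), Nusap1, a spindle protein (1.83, 0.0291), Top2a (1.80, 0.0253) and Mki67 (1.30, 0.0328). All 6 are G2/M genes, and in that fit 29 of 31 genes were above 0 with a median of 1.18. That mouse was left out after its values were seen.

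Summed over the list, the S genes were at 274, 225, 260 and 337 CPM in the sham and 280.5, 303, 237 and 332 CPM in the DOCA-salt mice, with full overlap. The G2/M genes were at 99.4, 95.2, 93.2 and 307 CPM in sham and 201, 180, 138 and 244 CPM in DOCA-salt mice. The T-like cells of sham mouse 4 were at 1075 CPM for G2/M genes, where the other sham mice had 152, 52.8 and 43.8 CPM and the DOCA-salt mice 153, 411, 226 and 626 CPM. In macrophage-like cells DOCA-salt mouse 1 was the highest at 558 CPM and sham mouse 4 next at 382 CPM, with 46.4 to 147 CPM in the other 6 mice.

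**Figure D4:**
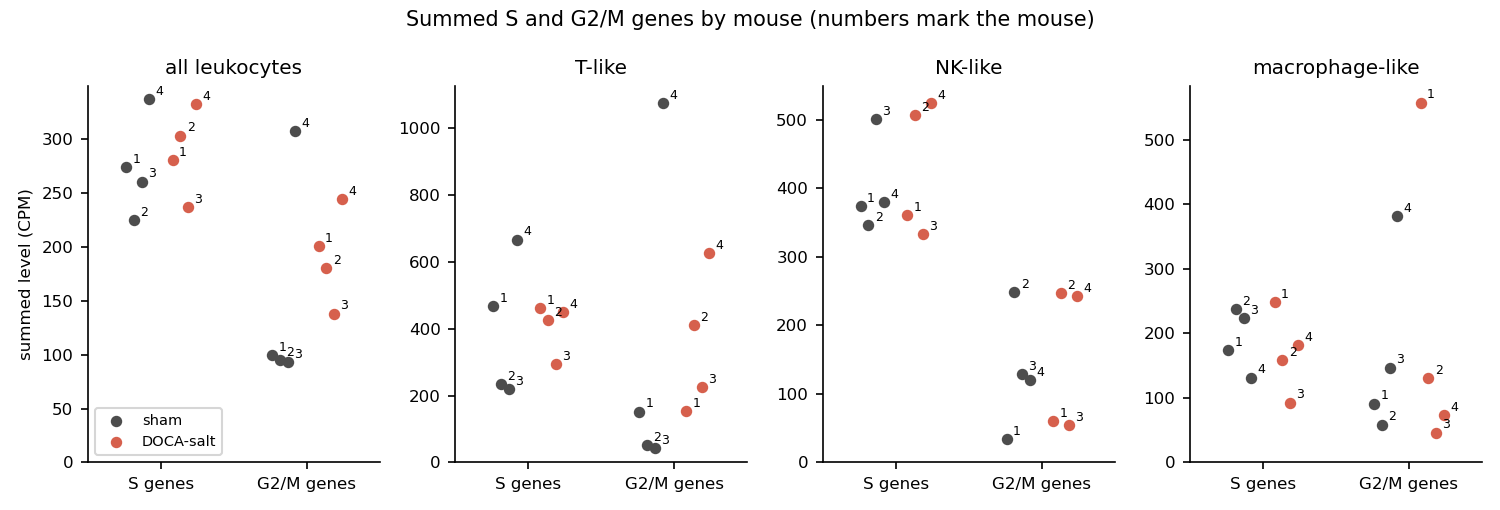
Summed level of the 13 S and 22 G2/M genes per mouse (y axis, CPM; the number beside a point is the mouse) in all leukocytes and in T, NK and macrophage-like cells, sham and DOCA-salt. Sham mouse 4 has the highest G2/M level in all leukocytes (307) and in T-like cells (1075), and DOCA-salt mouse 1 in macrophage-like cells (558).

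In single classes fewer genes could be tested. In B-like cells 0 of 10 passed (background 1.58%), in T-like cells, both clusters summed, 0 of 17 (0.378%), in NK-like cells 0 of 11 (0.9%) and in macrophage-like cells 0 of 2 (0.259%); none had enough counts in nonclassical-monocyte-like cells (1.91%). The unadjusted p was under 0.05 for 1, 0, 2 and 0 of them, against 13.2%, 8.31%, 9.05% and 8.72% of all genes in these classes. In NK-like cells Mcm3 was at 38.9, 28.1, 26.6 and 27.7 CPM in sham and 36.7, 53.2, 33.7 and 49.6 CPM in DOCA-salt mice (log2 fold change 0.58, SE 0.21, edgeR adjusted p = 0.313). Mcm5 there was at 29.2, 21.6, 39.9 and 42.7 CPM in sham and 48.4, 44.1, 42.9 and 57.4 CPM in DOCA-salt mice, which do not overlap by a narrow margin, as in 3.89% of genes with DOCA-salt above (log2 fold change 0.51, SE 0.20, edgeR adjusted p = 0.399). In B-like cells, where 5.11% of genes had all DOCA-salt mice below all sham mice, Cenpa was one of them, at 53.6, 42.4, 45.2 and 48.6 CPM in sham and 37.5, 40.9, 42.2 and 37.6 CPM in DOCA-salt mice (log2 fold change -0.26, SE 0.11, edgeR adjusted p = 0.300).

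Cycling T-like cells differed from other T-like cells of the same mice in many genes outside the list. The sums of 5 mice with at least 10 cycling T-like cells were compared by edgeR with the mouse as block. These were all 4 DOCA-salt mice and, of the sham mice, only sham mouse 4. Of genes outside the list, 424 were higher and 326 lower in cycling cells; 23 of 23 list genes tested were higher, beside a background of 8.81%, but they made the groups and are given as a description. Cycling T-like cells had a median of 7992 UMIs and the class 5037.5, so each value was also computed against other cells matched on depth and cluster, where 219 genes were higher and 205 lower. Without sham mouse 4, DOCA-salt mouse 4 or DOCA-salt mouse 2 the call fell to 390, 430 and 478 genes. Of the fixed list of other cell cycle genes, 37 of 39 tested were higher, with a median log2 change of 1.96 against -0.02 over all genes tested. Among them Kif15, a mitotic kinesin, rose by 6.64 (SE 0.57, edgeR adjusted p = 1.39e-06) and Cdca8, borealin of the passenger complex, by 5.39 (SE 0.31, adjusted p = 2.69e-08). Chaf1a (5.07), which loads histones on new DNA, also rose.

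Of the genes outside the lists, the replication-dependent histones Hist1h2ap and Hist1h2ae rose most in cycling T-like cells. Hist1h2ap had a mean of 3864 CPM in cycling against 90.8 CPM in other T-like cells (log2 change 4.64, SE 0.60, edgeR adjusted p = 9.30e-05) and was higher in 5 of 5 mice; such histone genes have near-identical copies, and how reads were split between them is uncertain. Incenp (3.21), Ezh2 (3.1), the methyltransferase of Polycomb, Kpna2 (2.82), a nuclear importin, and Gmnn (2.80), geminin that blocks re-licensing of origins, rose as well. Lower in 5 of 5 mice were Ly6c1 (-3.16), Rflnb (-2.10), Igfbp4 (-1.84), Smad7 (-1.66), Klhdc1 (-1.64) and Lef1 (-1.63), a factor of naive and memory T cells. Ly6c1, Igfbp4 and Lef1 are also among the 10 leading genes of cluster 4, which holds fewer cycling cells. Of quiescence genes, 4 of 11 fell, Btg1 (-1.34), an antiproliferative factor, its relative Btg2 (-0.72), Klf2 (-0.69) and Cdkn1b (-0.81), the CDK inhibitor Kip1, and Rbl1 (1.48) rose. Of G1 entry genes 3 of 5 rose, E2f2 by 3.01, Cdk4 by 0.68 and Ccnd3 by 0.60, and Myc fell (-0.92). Gzmb, the cytotoxic granzyme B, was higher by 2.32 (edgeR adjusted p = 0.000118; 1.81 against depth-matched cells). Of 6 NK markers tested, 3 were also higher in cycling T-like cells: Gzma (2.34), Ncr1 (1.71) and Klre1 (1.46). Against depth-matched cells Ncr1 was at 0.95 (adjusted p = 0.0573) and Klre1 at 0.64 (adjusted p = 0.147).

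Inside cluster 6, where cluster membership does not differ, Gzmb had a UMI in 36 of 73 cycling cells (49.3%) and in 93 of 455 others (20.4%), at medians of 9057 and 4660 UMIs. Gzma (39.7% against 18.7%) and Ncr1 (24.7% against 13.6%) were also seen more often in its cycling cells. The NK marker Klrb1c (21.9% against 25.7%) and Tcrg-C1 (15.1% against 22.4%) were seen less often. Cd3e, a T marker, had a UMI in 87.7% of its cycling and 70.3% of its other cells. In cluster 4 Cd8b1, a chain of the CD8 coreceptor, had a UMI in 26 of 36 cycling (72.2%) and 431 of 904 other cells (47.7%), and Cd4 in 16.7% and 30.5%, at medians of 6426 and 5033 UMIs. In cluster 6 Cd4 had a UMI in 12 of 73 cycling (16.4%) and 57 of 455 other cells (12.5%), at medians of 9057 and 4660 UMIs. At depths this far apart, these shares give no direction for the level of Cd4. On the antibody counts of both clusters together, over 7 mice with at least 5 cycling T-like cells, surface CD4 on cycling cells was lower in 7 of 7 mice by 1.14 on the log2 scale and CD8a higher in 6 of 7 by 0.97. CD44, an adhesion receptor of activated cells, was higher in 7 of 7 mice by 1.15 (two-sided exact sign-flip permutation p = 0.0156, 0.211 adjusted), and PD-1 in 7 of 7 by 0.68. With the planned minimum of 10 cycling cells, CD44 was higher in 5 of 5 mice by 1.035 (exact sign-flip permutation p = 0.0625, 0.533 adjusted over 32 tests). There CD4 was lower in 5 of 5 mice and CD8a higher in 4 of 5. None of the 64 antibody tests with at least 5 cycling cells passed after adjustment. The smallest sign-flip p possible was 0.0156 in T and NK-like cells (7 mice), 0.03125 in B-like (6) and 0.125 in macrophage-like cells (4). The macrophage-like tests could therefore not pass, and the others only if many reached their smallest p together. The antibody counts of T-like cells were not matched on cluster. Cluster 6 gave 73 of the 109 cycling T-like cells, while of the others 455 were in cluster 6 and 904 in cluster 4. The part of this cluster mix in the antibody differences was not tested. Most antibodies were higher on cycling cells of every class, 14 of 16 in T, 13 of 16 in B, 16 of 16 in NK and 13 of 16 in macrophage-like cells, and in each of these classes cycling cells also had the higher median of UMIs.

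In NK-like cells of 7 mice, all but sham mouse 3, 108 genes outside the list were higher and 51 lower in cycling cells. Of the list genes, 6 of 6 tested were higher, beside a background of 2.88%, but they made the groups and are given as a description. Of other cell cycle genes 16 of 23 rose, with a median log2 change of 1.15 against -0.06 over all genes. Stmn1, which destabilises microtubules, rose by 3.14 (SE 0.30, edgeR adjusted p = 4.81e-09), Smc2, a condensin, by 2.07, Lmnb1, lamin B1, by 2.03 and Hmgb2, a chromatin protein, by 1.99. Outside the lists Hmgn2 (1.72), Topbp1 (1.59), Siva1 (1.41), Ppih (1.18), Noc2l (1.13) and Phgdh (1.13), the first enzyme of serine synthesis, rose in 7 of 7 mice. Of 7 NK markers 3 were lower, the cytolytic pore protein Prf1 (-0.76) and the receptors Klra8 (-0.58) and Klrb1c (-0.57), and so were the receptor Klrc2 (-0.99) and the chemokine Ccl5 (-0.66). Also lower were Mirt1 (-1.21), Hopx (-1.13), Pik3r5 (-1.06), Ppm1j (-1.06), Pcmtd1 (-1.04), Btg1 (-0.74) and Btg2 (-0.70). The 159 genes became 46 without DOCA-salt mouse 4, 97 without mouse 2, 102 without mouse 1 and 255 without mouse 3 of that group. Against depth-matched cells 23 genes were higher and 8 lower; Hmgn2, Hmgb2, Hopx, Klrc2, Prf1 and Ccl5 still passed. In that fit, with 1900 genes tested against 3959, the log2 changes of those that no longer passed were 0.87 for Phgdh, -0.58 for Btg1, -0.41 for Klra8 and -0.36 for Klrb1c.

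In macrophage-like cells of 4 mice, 37 genes outside the list were higher and 32 lower. These were DOCA-salt mice 1, 2 and 4 and, of the sham mice, only sham mouse 2. Of the list genes, 9 of 10 were higher, beside a background of 0.943%, but they made the groups and are given as a description. Of other cell cycle genes 14 of 22 rose, with a median log2 change of 1.39 against -0.07 over all genes. The histone chaperone Asf1b rose by 4.93, Cks1b, a Cdk subunit, by 4.27, Stmn1 by 3.77 and Hmgb2 by 2.31. Outside the lists Ezh2 (2.65), Dnajc9 (2.29), Tubb4b (2.13), Selenoh (2.08), Hist1h2ap (2.05) and Ahcy (1.68) rose in 4 of 4 mice. The inflammatory cytokine gene Il1b was lower by -2.08 (SE 0.39, edgeR adjusted p = 0.00264), with means of 33.1 CPM in cycling and 230 CPM in other cells. The stress-induced phosphatase Dusp1 (-1.61), the chemokine Ccl4 (-1.60), Neat1 (-1.76), Man2a1 (-1.72) and Mitf (-1.60) were lower in 4 of 4 mice too. The 69 genes became 9 without DOCA-salt mouse 1 and 105 without sham mouse 2. Against depth-matched cells 17 genes were higher and 8 lower, Il1b (-2.19) and Dusp1 (-1.72) among the latter. None of the 8 macrophage markers passed. Spp1 passed (1.26, edgeR adjusted p = 0.0477), but 919 of its 925 UMIs in cycling cells came from DOCA-salt mouse 1. Gzma, an NK marker, was also higher (2.72), with 511 CPM in cycling and 42.8 CPM in other macrophage-like cells; its source was not tested.

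B-like cells differed from the other classes in the pattern of other cell cycle genes, without a test of that difference. Only 3 DOCA-salt mice had enough cycling B-like cells. There 19 genes outside the list were higher and 82 lower. Of the list genes, 10 of 16 were higher, beside a background of 0.365%, but they made the groups and are given as a description. Of other cell cycle genes 2 of 36 rose, Stmn1 (2.13) and Tuba1b (0.80), with a median log2 change of 0.38 against -0.17 over all genes. In data simulated at this size, with 1 fixed spread for every gene, 42% of genes changed 4-fold and 4% of those changed 2-fold were called. In T-like cells these shares were 86% and 52%. Ccnd2, a D-type cyclin, rose by 2.36 (SE 0.53, edgeR adjusted p = 0.00140) and Ms4a6c by 2.18, in 3 of 3 mice; Plac8 (0.90), Mif (0.88) and Npm1 (0.55) rose as well. Of 7 B markers 2 were lower, the factor Ebf1 (-0.73) and Cd79a (-0.52), a chain of the B cell receptor, with Bank1 (-0.93), Siglecg (-0.90), Dock10 (-1.47), Hhex (-1.43), Cyp4f18 (-1.14) and Rabac1 (-1.03). The 101 genes became 3 without DOCA-salt mouse 2, 60 without mouse 1 and 65 without mouse 4. Against depth-matched cells, with 2348 genes tested against 7946, 1 gene was higher (Ighv5-16) and 3 lower (Igkv14-126, Igkv17-121 and Igkv9-120), all of them antibody variable genes. Ccnd2 and Stmn1 were not tested there, and the other named B-like genes kept their direction without passing: Ms4a6c was at 2.38 (edgeR adjusted p = 0.169), Mif at 1.01, Tuba1b at 0.96, Npm1 at 0.57, Plac8 at 0.35, Dock10 at -1.51, Hhex at -1.31, Siglecg at -0.89, Rabac1 at -0.87, Bank1 at -0.82, Cyp4f18 at -0.73, Ebf1 at -0.41 and Cd79a at -0.31 on the log2 scale.

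**Figure D5:**
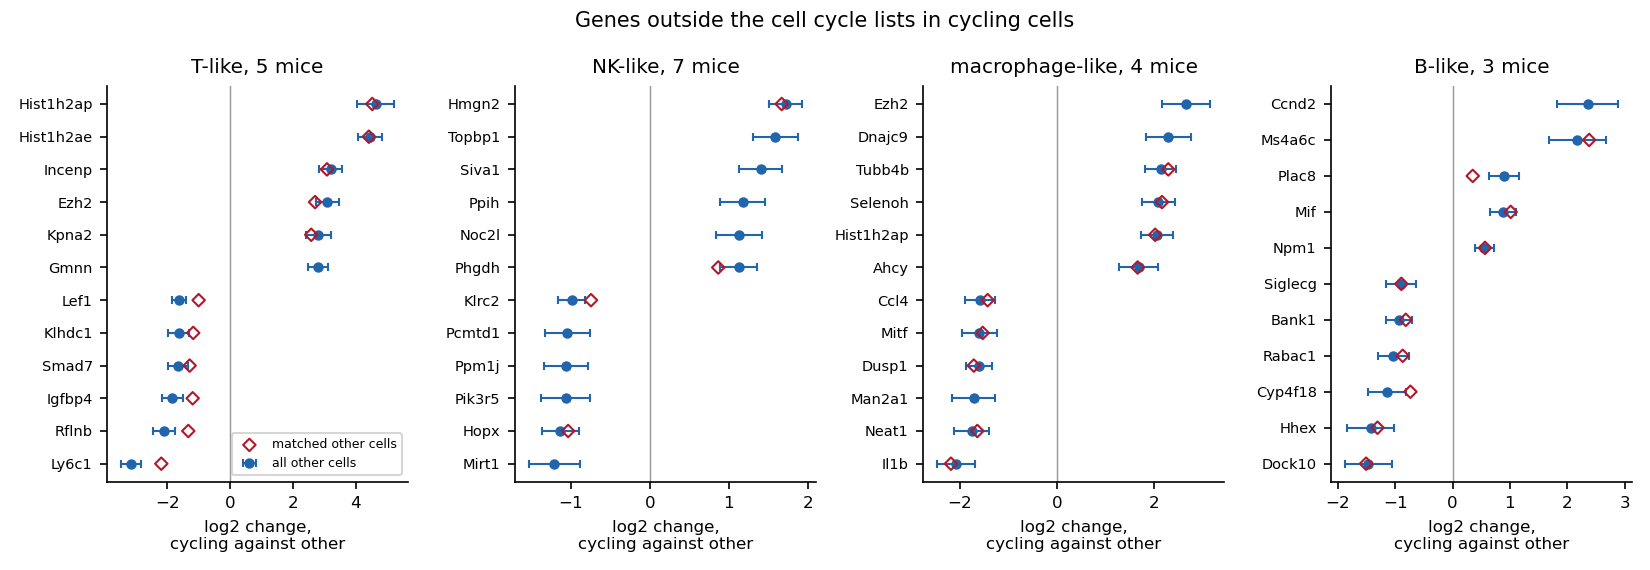
Log2 change of cycling against other cells of the same mice (x axis, points with standard errors) for the genes with the largest changes outside the 35 and the list of other cell cycle genes in T, NK, macrophage and B-like cells; diamonds show the change against other cells matched on depth and cluster. Hist1h2ap in T-like cells is highest at 4.64 and Ly6c1 lowest at -3.16, and each diamond lies on the same side of 0 as its point; genes without one were not tested there.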

How the data were processed

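Leukocytes of the left ventricle of 4 sham and 4 DOCA-salt mice were read as 5′ gene expression, hashtag and antibody libraries, 1 set per group. The deposited files hold raw counts of UMIs per gene and barcode, which the authors made with Cell Ranger on mm10, per the submitters' processing notes, which also name Seurat 4. No normalized values were used.

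The 35 genes and all gene lists were chosen with earlier results of these data known. Barcodes with under 200 genes or over 10% mitochondrial UMIs were left out, as were Scrublet's doublet calls (53 sham, 243 DOCA-salt) and 136 and 321 barcodes whose top hashtag was not 2 times the next. A hashtag was taken as 1 mouse, since the labels give 4 biological replicates per library. That left 10944 cells. Cells were clustered (scanpy 1.11.5, Leiden resolution 1, 2000 variable genes without cell cycle genes) and a cluster of at least 20 cells was named from at least 3 markers; the limit of 20 cells was set after the clusters were seen. The rebuilt names may differ from the study's.

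Shares were compared over mice by two-sided exact permutation tests, for classes with at least 20 cells in every mouse. The smallest p that 4 against 4 mice can give is 0.0286. After adjustment over 5 classes, a class that alone reaches it cannot pass 0.05. Counts summed per mouse were tested with edgeR 4.0.16 (R 4.3.3; quasi-likelihood, TMM, filterByExpr), with DESeq2 1.42.0 as an alternative. Cycling and other cells of a mouse were paired by the mouse itself. In the fits, mice needed at least 10 cycling cells of the class. In NK and macrophage-like cells fewer than 3 mice had them, and 5 was used, set after seeing the data. The antibody comparison was planned with 10 and is given with 5 in every class, also set after seeing the data. On simulated data with the mean levels and depths of these counts, the DOCA-salt fit over all leukocytes recovered 84% of genes changed 2-fold and 97% of those changed 4-fold. The simulation gave every gene the same fixed spread between mice, not its own. These shares therefore do not tell what could be recovered for genes that varied between mice as Top2a did. Named genes were, per class and direction, the largest changes (up to 6) among called genes averaging 50 CPM or more that moved one way in every mouse, and up to 4 of each list; T cluster features, DOCA-salt mouse 1's macrophage genes, Ccl5 and Gzmb, Gzma, Spp1 and Trem2 within classes were chosen after their values were seen. Cells of smaller classes were described without a test. One gene that the rule names is not reported here.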

Additional observations from a re-analysis of the deposited data

Results flagged for a closer look

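Of 88 groups of 4 mice checked for a mouse far from the other 3, 12 had one; chance alone marks about 1 in 20 such groups. Sham mouse 4 had the highest level of the 4 sham mice by such a gap for 8 single G2/M genes over all leukocytes: Top2a at 32.5 CPM, Ube2c at 24.6, Birc5 at 21.9, Ccna2 at 17.7, Ccnb2 at 16.2, Nusap1 at 13.8, Spc25 at 7.87 and Hmmr at 7.13. Its summed level of the 22 G2/M genes was set apart in the same way, at 307 CPM. DOCA-salt mouse 3 was the lowest of its group for Mcm3, at 25.5 CPM. In nonclassical-monocyte-like cells sham mouse 1 (2.22%) and DOCA-salt mouse 4 (1.92%) each had the only cycling cell of their group.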

How the results depend on the processing

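The higher share of cycling cells over all leukocytes stayed positive under each alternative run and lost its call in several: 3.1 points with at least 3 genes, 0.803 with at least 6, 0.571 with at least 10 (a limit chosen after seeing the data), 0.469 and 0.332 when thinned to 1500 and 1000 UMIs, and 1.43 when counting 2 or more G2/M genes. Leaving out a mouse gave 1.10 to 2.23 points.

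No class passed, but a class that alone reached the smallest possible p of 0.0286 could not pass after adjustment. B-like cells with 2 or more S genes had that exact permutation p, 0.143 adjusted over 5 classes. Directions turned as follows. In NK-like cells (1.60 points) the difference was -0.0838 with at least 10 genes, -0.311 thinned to 1500 and -0.439 thinned to 1000 UMIs; in macrophage-like cells (1.71) it was -0.0821 thinned to 1000, and -2.30 to 4.10 leaving out a mouse. In nonclassical-monocyte-like cells (-0.0748) it was 1.06 with at least 3 genes, 2.36 with 2 or more S genes, 1.04 at Leiden resolution 0.5, 0.312 with classes from single cells, and -0.556 to 0.481 leaving out a mouse. Macrophage minus B (0.972) was -0.301 with at least 3 genes, -0.110 thinned to 1000, and -2.97 to 3.18 leaving out a mouse. Macrophage minus T (-0.438) was 1.44, 0.657, 0.0763, 1.12 and 1.84 with at least 6 genes, at least 10, thinned to 1500, 2 or more G2/M genes and the stricter cell filter, and -3.03 to 2.003 leaving out a mouse. Macrophage minus NK (0.105) was -3.08, -0.226, -0.385 and -0.0348 with at least 3 genes, doublets kept, a hashtag margin of 5 and cell cycle genes in the clustering, and -4.61 to 2.70 leaving out a mouse. For the T clusters, whose alternatives were added after seeing the data, cluster 4 (2.36) was -0.0982 with at least 6 genes and 0.952 to 3.49 leaving out a mouse, and cluster 6 (-2.15) was 0.311 with 2 or more G2/M genes, 5.06 with 2 or more S genes, and -5.59 to 1.81 leaving out a mouse. The S share ranged from -18.7 to -6.75 points leaving out a mouse.

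Of the 35 genes, 0 to 6 passed over all leukocytes leaving out a mouse (6 without sham mouse 4), and 1, Cenpa, lower, with cycling cells left out. Of the genes whose log2 change the text gives, 3 changed sign leaving out a mouse: Nusap1 ranged from -0.0466 to 1.83 and Top2a from -0.0251 to 1.80 (both lowest without a sham mouse other than 4, highest without sham mouse 4), and Plac8 in B-like cells from -0.0705 to 1.29. For cycling against other cells, counts in T were 481 with DESeq2, 424 against matched cells and 390 to 848 leaving out a mouse; in NK 418 with no filter on low counts, 31 matched and 46 to 255; in macrophage-like cells 32 with DESeq2, 174 with no filter, 25 matched, 39 with the stricter cell filter and 9 to 105; and in B 23 with DESeq2, 38 against cells with none of the genes, 153 with no filter, 4 matched and 3 to 65. Without the replicate block the counts were 903 in T, 278 in NK, 46 in macrophage-like and 42 in B-like cells. The cause was not tested for these changes. No paired analysis was possible because a number on a hashtag ties no mouse of one group to a mouse of the other.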
